A study of Mus musculus with 12 samples.

Results

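Glucose uptake and glycolysis in the adult left ventricle were followed through 10 genes. They encode glucose transporters (Slc2a1, Slc2a4), hexokinases (Hk1, Hk2), phosphofructokinases (Pfkm, Pfkp), lactate dehydrogenases (Ldha, Ldhb) and pyruvate dehydrogenase kinases (Pdk2, Pdk4). The genes were chosen by name, by taking every probe whose gene name on the array equals 1 of these 10 symbols. All 10 were found, on 16 probes, among 18021 gene names that passed the filter on background. RNA came from the left ventricular wall with apex, without the septum, of 12 mice aged 6 months, 4 per group, and each mouse was hybridized to 1 single-colour Agilent array. Mutant mice carried Floxed-Nkx2-5-ΔNeo, a conditional allele of the cardiac transcription factor Nkx2-5, together with Cx40-creERT2, a tamoxifen-dependent recombinase driven from the Connexin40 gene. This gene is active in trabecular myocardium, so that deletion reaches only part of the ventricle and a bulk sample mixes deleted with undeleted cells. In Nkx2-5ΔTrbE10 mice (TrbE10, called Nkx2-5Δtrab in the sample labels), tamoxifen had been given to the pregnant mother on embryonic days E10.5 and then E11.5. In Nkx2-5ΔTrbE14 mice (TrbE14, Nkx2-5Δcomp in the labels), the days were E13.5 and then E14.5. Controls are given in the labels as not injected, and in the methods as littermates with the floxed alleles but without Cre. According to the methods, newborns from treated mothers were delivered by caesarian section and raised by foster mothers. The labels and methods do not give the litters of the 12 mice, so that p-values measure the spread between these mice only.

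Glucose enters a muscle cell through transporters of the Slc2 family and is trapped by hexokinases as glucose 6-phosphate. Phosphofructokinase then commits it to glycolysis, and the pyruvate formed is either exchanged with lactate by lactate dehydrogenase or oxidized by the mitochondrial pyruvate dehydrogenase complex, which pyruvate dehydrogenase kinases switch off. The adult heart burns mainly fatty acids. Slc2a4 and Hk2 are the insulin-responsive forms of heart and skeletal muscle, Pfkm is the muscle subunit and Ldhb the subunit favoured in heart, while Slc2a1, Hk1, Pfkp and Ldha are more widely used forms.

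The probe sequences show the stretch of RNA that each signal stands for. Each is 60 bases long, and the sequences below read 5′ to 3′. Pfkp is shown first, because its 2 probes gave different results (below), and the other 4 are the genes whose probes were lower in mutants at an unadjusted p under 0.05. Capitals mark a hexamer AATAAA or ATTAAA, the usual signal for polyadenylation, where the printed stretch holds one. The whole of probe A_51_P378856 is given, and of the others the last 30 bases.
Pfkp, A_51_P378856: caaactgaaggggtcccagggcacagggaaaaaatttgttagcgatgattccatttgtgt
Pfkp, A_52_P572045: tttgccagtcAATAAAcacctttggttggt
Slc2a4, A_51_P217498: caagggctgctgtATTAAAtgtgtatatag
Hk2, A_51_P204080: agaactagttgaattaaccatgtgatgtta
Pdk2, A_55_P2011802: gtacatagctagttttgtaatctcagaagc
Pfkm, A_51_P117995: gatttcagctactcaagagttttcctaaaa
On the array's coordinates (mm9), the first Pfkp probe runs on the minus strand from chr13:6581718-6583872, a span of 2155 bases for a probe of 60, so that it joins separate stretches of the gene. The second Pfkp probe lies at chr13:6579124-6579183, minus strand, and its end holds the hexamer. The Slc2a4 probe lies at chr11:69756073-69756132 (minus strand), the Hk2 probe at chr6:82675056-82675115 (minus strand), the Pdk2 probe at chr11:94887669-94887728 (minus strand) and the Pfkm probe at chr15:97962713-97962772 (plus strand). The probes of Slc2a4 and Pfkm stand on 10 spots of each array and every other probe of the 10 genes on 1. Exons and UTRs were not assigned, since no annotation of this build was used here.

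All 16 probes were well above background on all 12 arrays, and no spot was saturated. The probe of Nkx2-5, the deleted gene, read 11.89 to 12.23 in control, 11.21 to 11.67 in TrbE10 and 11.12 to 11.63 in TrbE14 hearts on the log2 scale, lower in every mutant heart than in every control heart. The difference from control was -0.66 ± 0.14 (SE; limma, adjusted p = 0.0459) in TrbE10 and -0.59 ± 0.14 (adjusted p = 0.106) in TrbE14. The control and TrbE14 arrays shared 1 slide, controls in row 1 and TrbE14 in row 2, and the TrbE10 arrays were in row 1 of another slide. Slide and early deletion therefore cannot be told apart, nor can slide row and late deletion. The Cx40-creERT2 allele, which controls lacked, cannot be told apart from the loss of Nkx2-5 in either mutant. If the controls were not injected, as the labels say, the same holds for tamoxifen, caesarian birth and fostering. Of the genes that mark cardiomyocytes, 8 of 8 were measured, and their summed signal was 1129610 to 1202980 in control, 1205530 to 1263290 in TrbE10 and 1117510 to 1196550 in TrbE14 hearts. Every TrbE10 sum lay above every control sum, but such sums are carried by the brightest probes. By mean, 4 of these markers were higher and 4 lower in TrbE10 hearts, and none passed the test. Among the latter, Ryr2 (-0.41) read lower on all TrbE10 arrays than on any control array. Macrophage markers moved with the mutants, 10 of 10 being measured, with a summed signal of 11156 to 13600 in control, 19517 to 24722 in TrbE10 and 17869 to 19158 in TrbE14 hearts. Of them, 5 passed the test as higher in TrbE10 and 1 in TrbE14, where 231 and 96 of all 18021 genes did. The sums of fibroblast markers (8 of 8 measured) were also higher, at 71320 to 79526, 89893 to 107461 and 93713 to 111689, and 1 marker passed the test as higher in each mutant. In TrbE14 hearts 1 marker of each of these lists had a lower mean, Mrc1 (-0.06) and Lum (-0.14). The summed signal of skeletal muscle markers was 608 to 937 in control, 231 to 367 in TrbE10 and 284 to 496 in TrbE14 hearts, but only 2 of 6 were measured and the defining myosins Myh1, Myh2 and Myh4 did not pass the filter. Tnni2, a fast troponin, makes this difference (-1.38 in TrbE10 and -0.89 in TrbE14), and the other marker measured, Tnnt3, had -0.08 and 0.06. By the signal of Y-linked genes, 1 control heart, 2 TrbE10 hearts and 3 TrbE14 hearts came from males, so that the sexes were not balanced between groups. The part of these cell types in the results below was not tested, and in such bulk samples fewer cells of a type and less RNA per cell cannot be told apart.

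The question was whether the genes of glucose use differed after early or late deletion of Nkx2-5. None of the 10 passed the test in either mutant (limma, adjusted p under 0.05 over all probes). In TrbE10 hearts 0 of 10 did, against 1.93% of the 18021 genes, with adjusted p from 0.104 to 0.834. In TrbE14 hearts 0 of 10 did, against 0.66% of genes, with adjusted p from 0.163 to 0.857. At an unadjusted p under 0.05, 4 of 10 were lower in TrbE10 hearts, where 9% of genes were, and 0 higher, where 7.8% were. These 4 were Slc2a4, Pdk2, Hk2 and Pfkm. In TrbE14 hearts 1 was lower, Hk2, where 7.4% of genes were, and 0 higher, where 6.52% were. By the arrays themselves, 3 genes (Slc2a4, Pdk2, Pfkm) read lower on all 4 TrbE10 arrays than on any control array, against 5.63% of genes, and 0 read higher on all, against 4.94%. For TrbE14, 2 genes (Slc2a4, Hk2) read lower on all 4 arrays, against 5.43% of genes, and 1 (Hk1) higher, against 4.65%. The median log2 change of the 10 genes was -0.16 in TrbE10 and -0.05 in TrbE14 hearts, beside -0.02 and -0.03 for all genes. Both mutants were set against the same control arrays, so that their counts are not independent of each other.

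**Figure D1:**
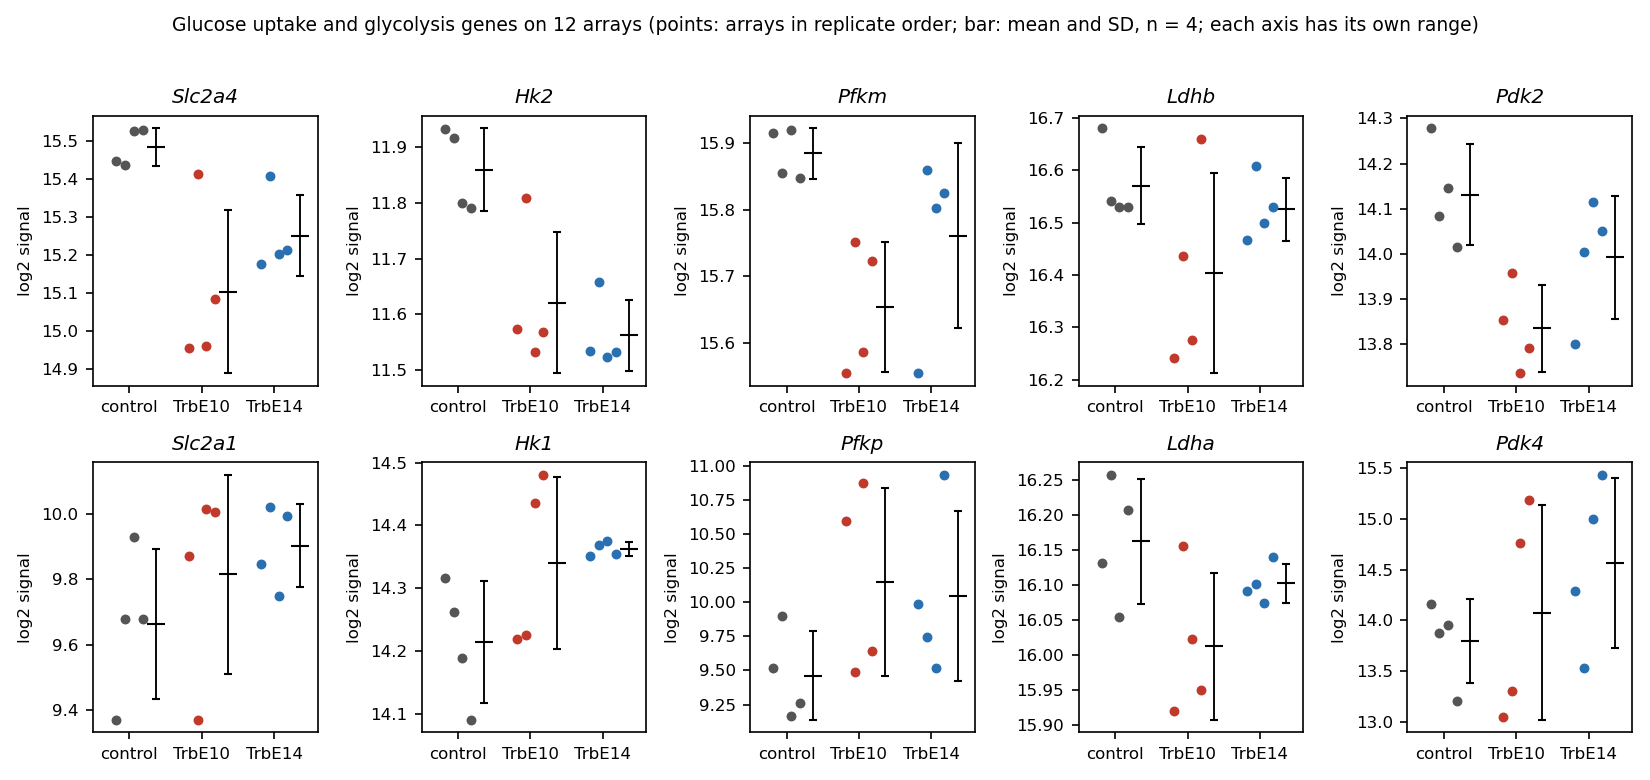
Log2 signal of each gene on each array (y axis, its own range in each panel) in control, TrbE10 and TrbE14 hearts, with the mean and SD of 4 arrays beside the points. Slc2a4 read 14.96 to 15.41 in TrbE10 hearts and 15.44 to 15.53 in control hearts, while Pdk4 spread from 13.05 to 15.19 within TrbE10 hearts.

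**Figure D2:**
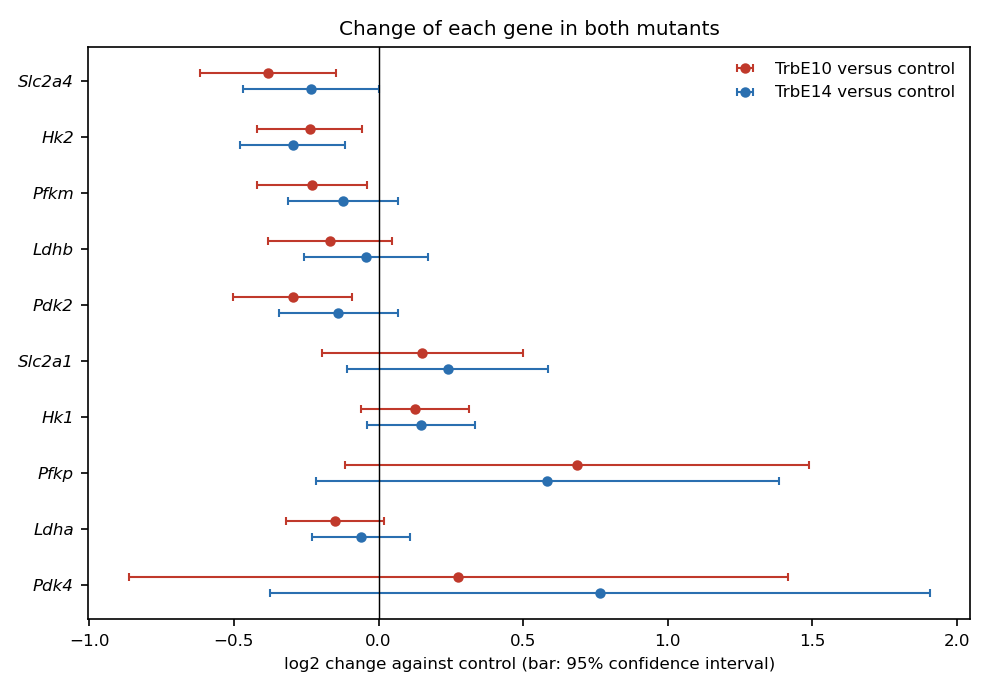
Log2 change of each gene against control in TrbE10 and TrbE14 hearts (x axis), with 95% confidence intervals from limma. The intervals of Slc2a4, Hk2, Pfkm and Pdk2 in TrbE10 and of Hk2 in TrbE14 lie below 0, and no gene passed the test after adjustment.

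Slc2a4 encodes GLUT4, the transporter that insulin and contraction bring to the surface of muscle cells. Its log2 signal was 15.45, 15.44, 15.53 and 15.53 in control, 14.96, 15.41, 14.96 and 15.08 in TrbE10 and 15.18, 15.41, 15.20 and 15.21 in TrbE14 hearts. All 8 mutant hearts thus lay below the 4 control hearts, but replicate 2 of each mutant group stood close under them. The difference was -0.38 ± 0.11 (SE) in TrbE10 (0.767-fold, adjusted p = 0.104 by limma, exact permutation p = 0.0286, the smallest that 4 arrays against 4 allow). It was -0.24 ± 0.11 in TrbE14 (0.85-fold, adjusted p = 0.368 by limma, exact permutation p = 0.0286). Without replicate 2 of TrbE10, the difference was -0.49 and limma's adjusted p 0.015, so that the gene passed the test in that fit. This was the TrbE10 heart closest to the controls, and leaving it out could only enlarge the difference. For Slc2a4 it was not flagged as far from the rest of its group by the Dixon ratio used below. Passing the test without it is therefore not read as a result. Over all alternatives the adjusted p ran from 0.015 to 0.26. Replicate 2 of TrbE10 also had the highest Nkx2-5 signal of its group, 11.67. In TrbE14 hearts the highest Nkx2-5 signal was in replicate 4 (11.63, with Slc2a4 at 15.21). There the highest Slc2a4 signal was in replicate 2 (15.41, with Nkx2-5 at 11.57). The relation between both genes was not tested.

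Slc2a1 encodes GLUT1, the transporter of basal glucose uptake, which prevails in the fetal heart. It read 9.37, 9.68, 9.93 and 9.68 in control, 9.87, 9.37, 10.01 and 10.01 in TrbE10 and 9.85, 10.02, 9.75 and 9.99 in TrbE14 hearts. The groups overlapped. The differences were 0.15 ± 0.16 (SE; 95% interval -0.20 to 0.50) and 0.24 ± 0.16 (-0.11 to 0.59), with adjusted p of 0.684 and 0.518 by limma.

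Hk2, the hexokinase that insulin induces in muscle, was the gene with the lowest unadjusted p in TrbE14 hearts. It read 11.93, 11.92, 11.80 and 11.79 in control hearts, 11.57, 11.81, 11.53 and 11.57 in TrbE10 hearts, and 11.54, 11.66, 11.52 and 11.53 in TrbE14 hearts. Every TrbE14 heart lay below every control heart, whereas replicate 2 of TrbE10 lay among the controls. The difference was -0.24 ± 0.08 (SE) in TrbE10 (0.848-fold, unadjusted p = 0.0145, adjusted p = 0.183 by limma) and -0.30 ± 0.08 in TrbE14 (0.814-fold, unadjusted p = 0.00406, adjusted p = 0.163). With normexp background correction in place of the scanner's own, the TrbE14 difference was -0.33 and passed the test (adjusted p = 0.045 by limma). Over all alternatives the adjusted p in TrbE14 ran from 0.045 to 0.341.

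Hk1, the hexokinase bound to mitochondria in most tissues, had a higher mean in both mutants. It read 14.32, 14.26, 14.19 and 14.09 in control, 14.22, 14.23, 14.44 and 14.48 in TrbE10, and 14.35, 14.37, 14.37 and 14.35 in TrbE14 hearts. The TrbE14 hearts were close to each other and all above the controls, and TrbE10 hearts formed a lower and a higher pair. The differences of 0.13 ± 0.08 and 0.15 ± 0.08 (SE) did not pass the test (adjusted p = 0.497 and 0.461 by limma). Another Hk1 probe, A_55_P2118843, placed at chr10:61732717-61732776 (mm9, minus strand), gave 0.26 ± 0.14 and 0.23 ± 0.14. The remaining probe, A_55_P2037398, carries the same gene name but is placed at chr5:22118404-22118463, apart from the other probes, which lie on chromosome 10. It gave 0.10 ± 0.08 in TrbE10 and -0.01 ± 0.08 in TrbE14, and is uncertain as a measure of Hk1.

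Pfkm, the muscle subunit of phosphofructokinase, read 15.91, 15.85, 15.92 and 15.85 in control, 15.55, 15.75, 15.59 and 15.72 in TrbE10 and 15.56, 15.86, 15.80 and 15.83 in TrbE14 hearts. The TrbE10 hearts lay below all controls. Of the TrbE14 hearts, replicate 1 was at the TrbE10 level and replicate 2 among the controls. The difference was -0.23 ± 0.09 (SE) in TrbE10 (0.852-fold, unadjusted p = 0.0214, adjusted p = 0.218 by limma) and -0.12 ± 0.09 in TrbE14 (adjusted p = 0.537).

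Pfkp, the platelet subunit, had the widest split between probes. Probe A_51_P378856, printed above as the one that joins separate stretches, read 9.52, 9.90, 9.17 and 9.26 in control, 10.59, 9.49, 10.87 and 9.64 in TrbE10, and 9.99, 9.74, 9.52 and 10.93 in TrbE14 hearts. Of the mutant hearts, 3 (replicates 1 and 3 of TrbE10 and replicate 4 of TrbE14) read 10.59 to 10.93, above all controls, and the other 5 lay within the control range or just above it. The differences of 0.69 ± 0.36 and 0.58 ± 0.36 (SE) had adjusted p of 0.382 and 0.497 (limma). Probe A_52_P572045 read 6.10 to 6.45 in control, 6.21 to 6.51 in TrbE10 and 5.62 to 6.56 in TrbE14 hearts, with differences of 0.02 ± 0.17 and -0.22 ± 0.17. It showed no such high hearts, replicates 1 and 3 of TrbE10 reading 6.35 and 6.24 and replicate 4 of TrbE14 6.04. The direction of Pfkp in TrbE14 hearts thus depends on the probe. A_52_P572045 was much the dimmer, with group means of the scanner's processed signal of 74.6 to 80.8, against 746 to 1196 for A_51_P378856. What this dimness does to its differences was not tested.

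The subunits of lactate dehydrogenase had a small spread within groups. Ldhb read 16.68, 16.54, 16.53 and 16.53 in control, 16.24, 16.44, 16.27 and 16.66 in TrbE10, and 16.47, 16.61, 16.50 and 16.53 in TrbE14 hearts. Of TrbE10 hearts, 3 lay below all controls and replicate 4 did not. The differences were -0.17 ± 0.10 (SE) and -0.04 ± 0.10 (adjusted p = 0.426 and 0.857 by limma). Ldha read 16.13, 16.26, 16.05 and 16.21 in control, 15.92, 16.16, 16.02 and 15.95 in TrbE10, and 16.09, 16.10, 16.07 and 16.14 in TrbE14 hearts. Replicate 2 of TrbE10 lay within the control range and the other 3 below it. The differences were -0.15 ± 0.08 (95% interval -0.32 to 0.02) and -0.06 ± 0.08 (-0.23 to 0.11), with adjusted p of 0.367 and 0.743. The other Ldha probes gave -0.18 and -0.17 in TrbE10, but 0.06 (A_55_P2141876) and -0.02 (A_55_P2141878) in TrbE14 hearts.

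The pyruvate dehydrogenase kinases differed most in their spread. Pdk2, the kinase present in most tissues, read 14.28, 14.08, 14.15 and 14.01 in control hearts, 13.85, 13.96, 13.73 and 13.79 in TrbE10 hearts, and 13.80, 14.00, 14.11 and 14.05 in TrbE14 hearts. All TrbE10 hearts were below all controls, while TrbE14 hearts overlapped with both groups. The difference was -0.30 ± 0.09 (SE) in TrbE10 (0.814-fold, unadjusted p = 0.00878, adjusted p = 0.146 by limma, exact permutation p = 0.0286) and -0.14 ± 0.09 in TrbE14 (adjusted p = 0.523). The second Pdk2 probe, A_51_P426276, gave -0.18 ± 0.10 in both mutants.

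Pdk4, the kinase that rises with fasting and fatty acid supply, varied most. It read 14.16, 13.88, 13.96 and 13.20 in control, 13.05, 13.31, 14.76 and 15.19 in TrbE10 and 14.29, 13.53, 15.00 and 15.44 in TrbE14 hearts. In each mutant group replicates 3 and 4 stood above all controls and replicate 2 below 3 of them. Replicate 1 was below all controls in TrbE10 and just above them in TrbE14. The differences of 0.28 ± 0.52 and 0.77 ± 0.52 (SE) lay within the spread between hearts (adjusted p = 0.834 and 0.526 by limma), and without replicate 4 of TrbE10 the former turned to -0.09. Over all 12 arrays Pdk4 spanned 5.24-fold. Its SD within groups, 0.81 log2 units, was above that of 97.2% of genes. Pfkp followed with 0.57 (92% of genes lower), whereas the SD of Slc2a1 was 0.23 and those of the other 7 genes were 0.08 to 0.14.

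Set directly against each other, the mutants showed no difference that passed the test in any of the 10 genes. In TrbE10 against TrbE14 hearts 0 of 10 passed the test, as did 0% of all genes, and 0 of 10 had an unadjusted p under 0.05, where 5.96% of genes did. Slc2a4 was lower in TrbE10 by -0.15 ± 0.11 (SE; 95% interval -0.38 to 0.09), Pdk2 by -0.16 ± 0.09 (-0.36 to 0.05) and Pfkm by -0.11 ± 0.09 (-0.30 to 0.08), and the adjusted p of the 10 genes were 0.93 to 0.986 (limma). The larger number of genes under an unadjusted p of 0.05 in TrbE10 hearts is therefore not shown to be a difference between the mutants. Probe A_55_P2141876 of Ldha read lower on all 4 TrbE10 arrays (10.51 to 10.88) than on any TrbE14 array (10.89 to 11.14), with a difference of -0.24 ± 0.11 and an adjusted p of 0.868, and the other Ldha probes overlapped. The nearest hearts of the 2 groups almost touched, at 10.8846 and 10.8857. The share of all genes that separate in this way between the mutants is not given here, so that this separation is not read as a result.

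The genes of 1 step were next set against each other on each array. Levels of different probes cannot be compared, so the log2 ratio was taken relative to its mean in control hearts, as a description without a test. Hk2 over Hk1 was lower in all 8 mutant hearts than in all control hearts, at -0.36 ± 0.24 (SD, n = 4) in TrbE10 and -0.44 ± 0.06 in TrbE14, where the controls spread by 0.04. In TrbE10 it ran from -0.56 to -0.06 and in TrbE14 from -0.49 to -0.36, against -0.03 to 0.05 in control hearts. The highest TrbE10 heart, replicate 2, thus stood just under the lowest control. How often other pairs of genes separate in this way was not counted. Slc2a4 over Slc2a1 was -0.47 ± 0.10 in TrbE14, below all controls. In TrbE10 it was -0.53 ± 0.51, with 3 hearts below all controls and replicate 2 at 0.22, within their range. Pfkm over Pfkp was -0.92 ± 0.78 and -0.71 ± 0.63, overlapped with the controls and rests on the Pfkp probe that the other probe did not follow. Ldhb over Ldha was -0.02 ± 0.21 and 0.02 ± 0.06. Pdk4 over Pdk2 was 0.57 ± 1.13 and 0.91 ± 0.79 and overlapped with the controls in both mutants.

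**Figure D3:**
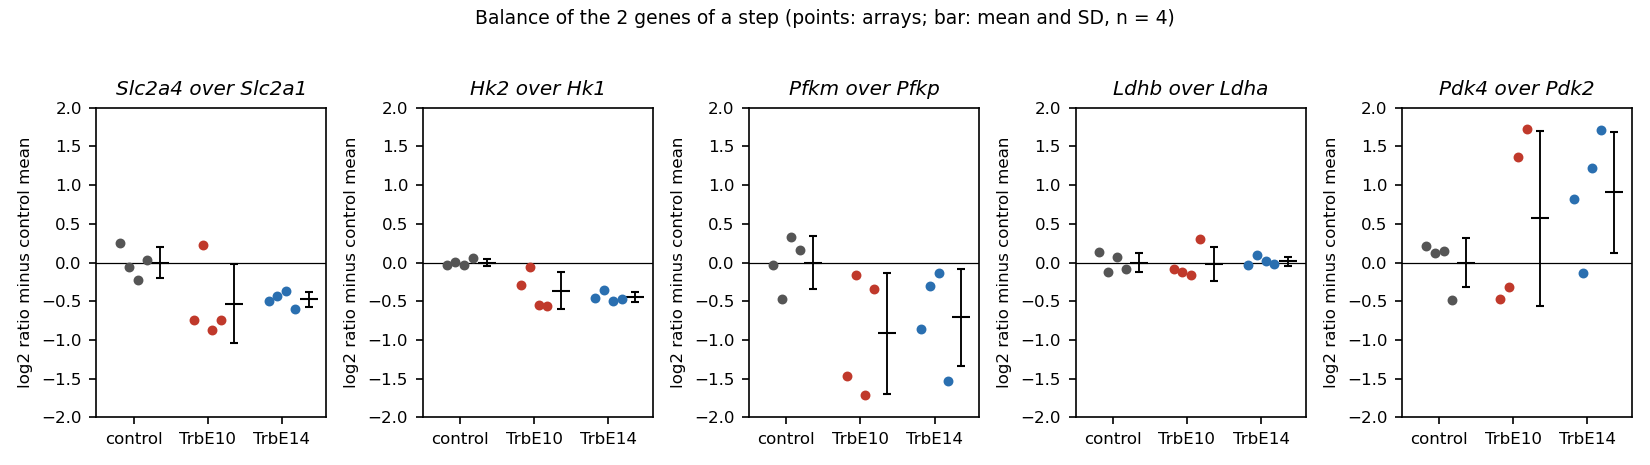
Log2 ratio of the 2 genes of each step on each array, minus its mean in control hearts (y axis, same range in all panels), with the mean and SD of 4 arrays. Hk2 over Hk1 was below the controls in all 8 mutant hearts, and the ratio of the lactate dehydrogenases in mutant hearts lay between -0.16 and 0.30 of the control mean.

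The promoter windows of the genes were read for short elements. RefSeq (build GRCm38.p6) gave 15 windows of 300 bases, 250 before and 50 after a transcription start, for 9 of the 10 genes, several genes having more than 1 start. Slc2a4 had no window in the table used. A pair of Pfkm windows shared 215 bases, with 1 GCGTG site in common, so that the windows are not separate stretches. Both strands were searched for 4 motifs. CACGTG is the E box read by clock and glucose-sensing factors. ACGTG is the core that HIF factors read and is part of every such E box, and its usual variant is GCGTG. The element bound by Nkx2-5 is TNAAGTG. The E box stood in 3 of 15 windows (7.15% of all windows), ACGTG in 7 (19.6%), GCGTG in 9 (32.4%) and TNAAGTG in 1, while 3790 of all 32851 windows held it. The first Ldha window held 2 CACGTG sites, and 1 window each of Pfkm and Pdk2 held 1. Hk2 is printed as the gene lower in both mutants at an unadjusted p under 0.05, with its ACGTG matches, both on the opposite strand, in capitals. The second Ldha window is printed because it alone held the Nkx2-5 element, here in capitals on the opposite strand.
Hk2, chr6:82774405-82774704, minus strand: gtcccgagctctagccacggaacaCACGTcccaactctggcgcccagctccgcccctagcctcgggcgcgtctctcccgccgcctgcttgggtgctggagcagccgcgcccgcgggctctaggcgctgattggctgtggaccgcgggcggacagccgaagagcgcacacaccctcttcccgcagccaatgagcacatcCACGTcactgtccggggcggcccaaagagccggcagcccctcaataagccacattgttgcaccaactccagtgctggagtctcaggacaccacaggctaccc
Ldha, chr7:46846832-46847131, plus strand: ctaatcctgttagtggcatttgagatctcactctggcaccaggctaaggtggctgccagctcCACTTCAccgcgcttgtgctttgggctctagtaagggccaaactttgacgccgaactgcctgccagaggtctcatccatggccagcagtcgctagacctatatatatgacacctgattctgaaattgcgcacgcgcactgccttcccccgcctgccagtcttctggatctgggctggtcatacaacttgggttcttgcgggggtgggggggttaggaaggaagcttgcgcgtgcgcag
Counted in bases from the start, the Hk2 matches begin at -226 and -52 and the Ldha match at -188. Ldha, the gene with the Nkx2-5 element in a window, differed from control by -0.15 and -0.06 in the mutants (above). A match is a description of letters, and binding was not measured.

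Pdk4 was followed further because of its spread. Over the 12 arrays its signal ran most closely with that of Gpihbp1, which carries lipoprotein lipase across capillary endothelium (Pearson r = 0.971), and of Map3k6, a stress-activated kinase (r = 0.954). Of the genes in the lists of glucose regulators, PPAR targets and clock genes, the 6 with the highest correlation to Pdk4 within groups were named after their values had been seen. They were Pik3r1, a regulatory subunit of PI3-kinase (r = 0.897), the clock genes Per2 (0.873) and Per1 (0.863), Klf15, a transcription factor of the fasting response (0.863), Irs2, an adaptor of the insulin receptor (0.83), and Angptl4, a fasting-induced inhibitor of lipoprotein lipase (0.807). The 3 with the lowest correlation were Fabp3, the fatty acid binding protein of heart (-0.74), Mlxipl, a glucose-sensing transcription factor (-0.682), and Arntl, the clock activator (-0.652). Not all clock genes ran with Pdk4, as Dbp (0.396), Per3 (0.308) and Clock (-0.0109) had weaker correlations. These correlations describe 12 arrays that share 3 groups and 2 slides, and carry no test.

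Per1 read 11.77 to 12.47 in control hearts, but 11.61, 10.42, 12.58 and 14.19 in TrbE10 and 12.01, 10.27, 14.03 and 13.84 in TrbE14 hearts. Replicates 3 and 4 of both mutant groups were therefore high for Per1 as for Pdk4. Per2 read 6.09 to 6.61 in control hearts, 5.74, 3.86, 7.21 and 7.76 in TrbE10 and 5.80, 4.22, 6.99 and 7.19 in TrbE14 hearts, with replicates 3 and 4 again above all controls. Replicate 1 of TrbE14, just above the controls for Pdk4, was within their range for Per1 and below all of them for Per2. Klf15 read 7.09 to 7.48 in control, 6.19 to 7.95 in TrbE10 and 6.54 to 7.82 in TrbE14 hearts, and of TrbE10 hearts replicate 4 alone was above the controls. None of the 11 clock genes measured passed the test in either mutant, and 0 had an unadjusted p under 0.05. Neither the time of day nor the feeding state of the mice is given in the sources used here, and their part in the spread of Pdk4 was not tested. The replicate number is also the position of an array in its slide row, in controls as in mutants, and the part of position in this spread was not tested.

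**Figure D4:**
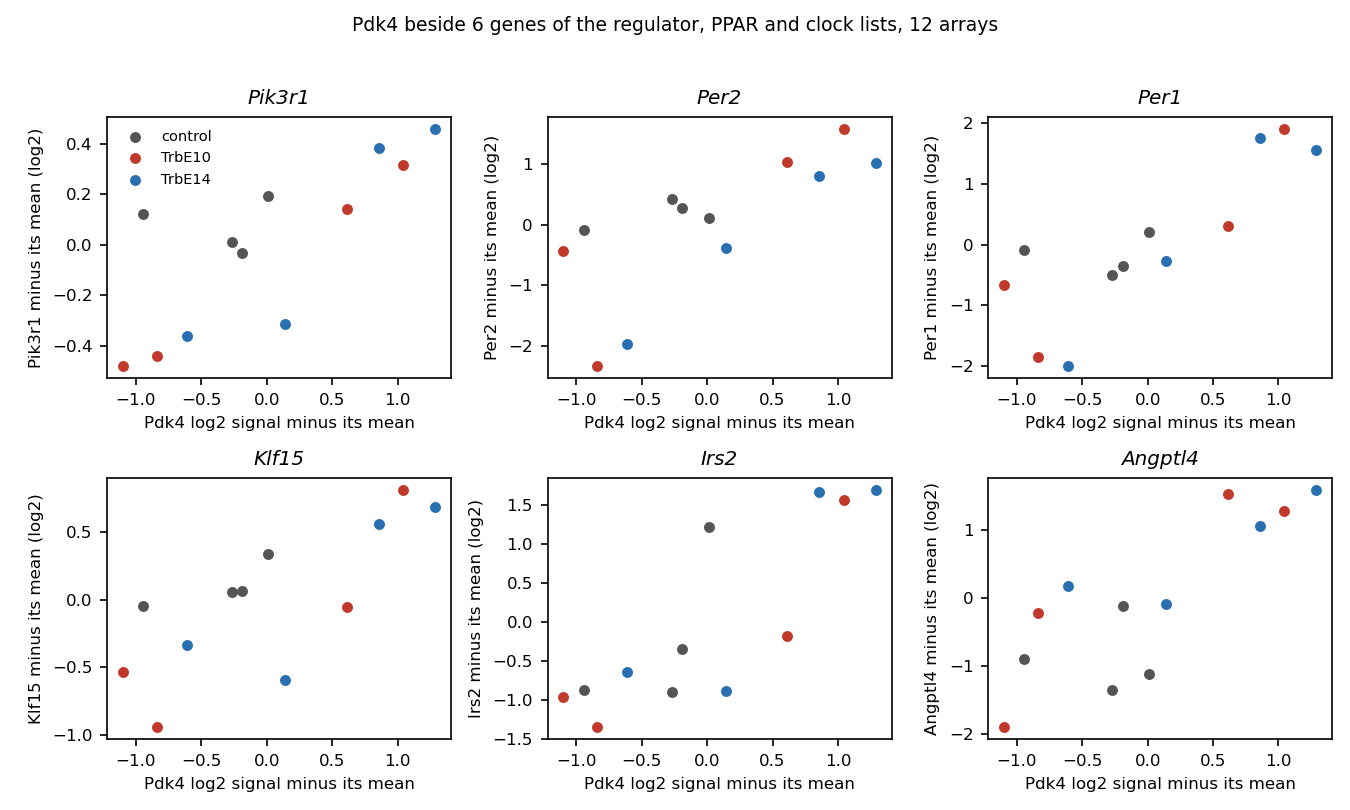
Log2 signal of 6 genes (y axes) against that of Pdk4 (x axis), each minus its mean over 12 arrays, with 1 point per heart coloured by group. For Per1 and Per2 the control hearts lie between the lowest and the highest mutant hearts on the y axis, 6.09 to 6.61 for Per2 against 3.86 to 7.76.

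For the other genes, the measure of likeness was again Pearson's r over the 12 arrays, among 1 probe per gene name. Each partner, like Gpihbp1 and Map3k6 above, was picked as the highest among all gene names kept, so that a high r comes partly from the search itself. Differences between groups enter these values too, and no test was run. Slc2a4 was most like Wnk2 (r = 0.982), Slc2a1 like Fam76a (0.886), Hk1 like Ctdp1 (0.917) and Sat1 (0.911), and Hk2 like Mrps25 (0.944) and Kbtbd12 (0.942). Pfkm was most like Nfs1 (0.942) and Lzic (0.937), Pfkp like Mbp (0.899) and Braf (0.892), Ldha like Napa (0.952), Ldhb like Cs (0.925) and Mast2 (0.898), and Pdk2 like Ddx59 (0.956) and Nfu1 (0.931). The second closest probes of Slc2a4, Slc2a1 and Ldha carry no gene symbol. Among the 10 genes themselves, within groups, Hk1 went with Pdk4 (r = 0.756), Slc2a4 with Hk2 (0.748) and Pfkm with Pdk2 (0.708), while Slc2a1 ran against Hk2 (-0.701) and Slc2a4 against Pfkp (-0.635).

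The rest of the pathway was read from lists of other genes. Counts at an unadjusted p under 0.05 are to be read against the rate over the whole array, 7.8% (higher) and 9% (lower) for TrbE10, and 6.52% and 7.4% for TrbE14. Of 25 other genes of uptake and glycolysis 23 were measured, and none passed the test in either mutant. At an unadjusted p under 0.05, 4 were higher and 1 lower in TrbE10 hearts, and 2 were higher and 1 lower in TrbE14 hearts. The medians of the list were 0.06 and 0.03, and -0.04 and -0.03 under scaling to the 75th percentile. That scaling also moved the medians of all genes, from -0.02 and -0.03 to -0.08 and -0.06, so that the list stayed above them. The nearest to the threshold was Pfkfb4, which makes the activator of phosphofructokinase, at 0.51 in TrbE10 (adjusted p = 0.0516 by limma) and 0.33 in TrbE14 (adjusted p = 0.26). Eno3, the muscle enolase, had -0.37 (adjusted p = 0.165) and Aldoc, a brain aldolase, 0.56 (adjusted p = 0.201) in TrbE10 hearts.

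Of 17 genes of pyruvate and lactate handling 16 were measured and none passed. Slc16a3, the exporter MCT4, had 0.93 in TrbE10 hearts (adjusted p = 0.0561 by limma) and 0.71 in TrbE14 hearts (adjusted p = 0.204). Mpc2, of the mitochondrial pyruvate carrier, had -0.27 (adjusted p = 0.201) and Ldhd, the D-lactate dehydrogenase, -0.32 (adjusted p = 0.22) in TrbE10 hearts. By unadjusted p, 2 were higher and 3 lower in TrbE10, and 1 higher and 1 lower in TrbE14.

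Of 17 glycogen genes 16 were measured and none passed, with 3 lower and 0 higher by unadjusted p in TrbE10 hearts and 0 lower and 1 higher in TrbE14. Gys1, the muscle glycogen synthase, had -0.32 in TrbE10 (adjusted p = 0.0988 by limma) and -0.03 in TrbE14 (adjusted p = 0.883). Phkg1, the catalytic subunit of muscle phosphorylase kinase, had -0.74 (adjusted p = 0.122) and Gaa, the lysosomal glucosidase, -0.17 (adjusted p = 0.262) in TrbE10. The median of the list was -0.16 in TrbE10, equal to that of the 10 genes at this precision, and -0.07 in TrbE14 hearts.

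None of the 17 regulators of glucose use and none of the 18 genes of fatty acid use passed in either mutant. Among regulators, Hif1a, the oxygen-sensitive factor that drives glycolytic genes, had 0.49 in TrbE10 (adjusted p = 0.213 by limma), Mef2a, a factor of the Slc2a4 promoter, -0.24 (adjusted p = 0.336), and Tbc1d4, which holds GLUT4 inside the cell, -0.31 (adjusted p = 0.339). Ppara, the regulator of fatty acid oxidation, had -0.57 in TrbE10 (adjusted p = 0.11) and -0.48 in TrbE14 (adjusted p = 0.254), with Esrra at -0.18 and Plin2 at 0.45 in TrbE10. By unadjusted p, 1 regulator was higher and 0 lower in TrbE10, and 1 higher and 1 lower in TrbE14. For fatty acid use these counts were 0 higher and 2 lower in TrbE10, and 3 higher and 1 lower in TrbE14. Of the clock list, Hlf, Nr1d2 and Per2 had -0.29, -0.17 and -0.22 in TrbE10 hearts.

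**Figure D5:**
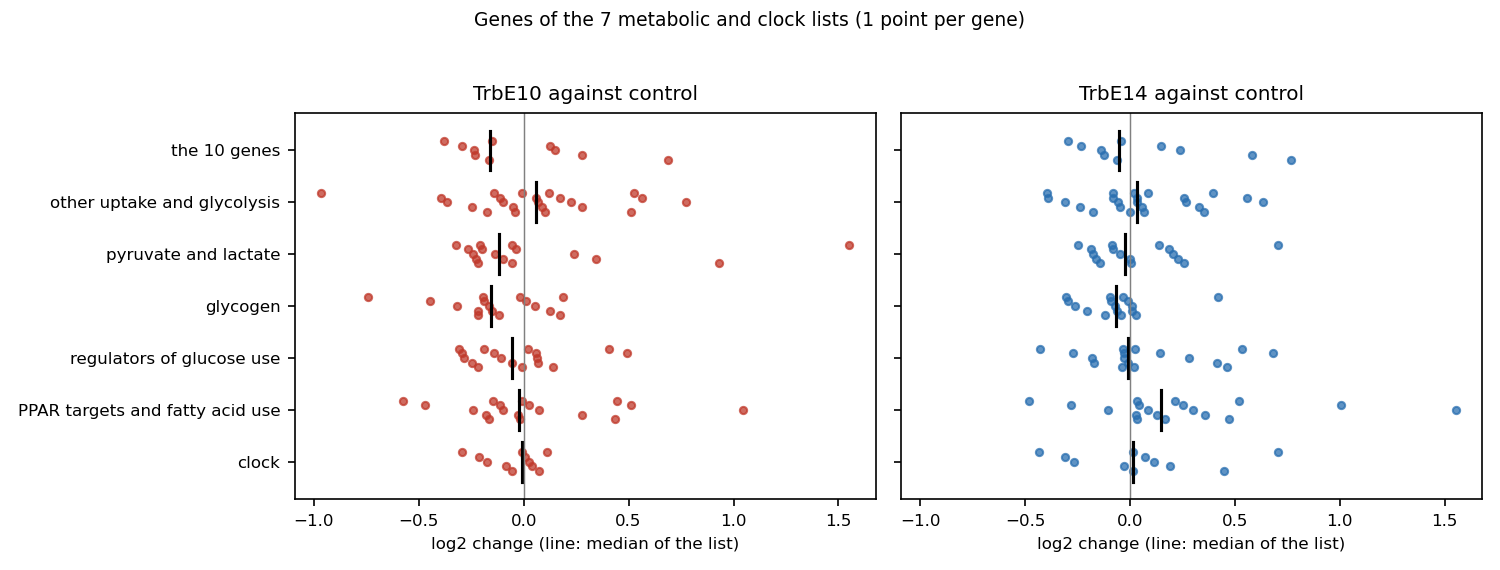
Log2 change against control (x axis) of every measured gene of 7 lists in TrbE10 and TrbE14 hearts, with a line at the median of each list. The medians of the 10 genes and of the glycogen list were both -0.16 in TrbE10 hearts, and no point in these lists passed the test.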

How the data were processed

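The scanner's output was deposited for each array (Agilent Feature Extraction 10.5, named in the submitters' processing notes). Its processed signal is the intensity of a spot, linear and already corrected for background by the software the authors used. A second table deposited by the authors holds log2 values, quantile normalized and filtered on background, and served as an alternative. Here the processed signals were put on the log2 scale and normalized between arrays by quantiles (limma 3.58.1 in R 4.3.3), without control spots and spots marked as outliers. Spots of the same probe were averaged. Of 55681 probes, 24593 were well above background on 3 of 4 arrays in at least 1 group and entered the fit. The number of arrays limits the precision. Group means over all 12 arrays were compared in limma, and p-values were adjusted by Benjamini-Hochberg over all probes of a comparison. Every adjusted p is limma's. Exact two-sided permutation tests used all 70 label orders of 8 arrays. Where a gene had several probes, the one with the highest mean signal stands for it. The 10 genes and the other lists were chosen with earlier results of these data known. Named are the 10 genes, Nkx2-5, for each pathway list the genes that passed the test or else the 3 with the smallest p in TrbE10, and the 2 genes most like each of the 10. The further genes set beside Pdk4 were chosen after their values were seen, as were the markers named. Scripts were tested on simulated data. Figures were drawn with matplotlib 3.10.9.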

Additional observations from a re-analysis of the deposited data

Results flagged for a closer look

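Among 30 groups of 4 arrays (10 genes in 3 groups), 4 held 1 array far from the other 3, by Dixon's ratio of the gap to the range at its 95% critical value. Chance gives about 1 such group in 20. In TrbE14 hearts replicate 2 stood high for Slc2a4 (15.41) and for Hk2 (11.66). In TrbE10 hearts replicate 2 stood high for Hk2 (11.81). In control hearts replicate 1 stood high for Ldhb (16.68). The cause was not tested.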

How the results depend on the processing

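Tried were another scaling (75th percentile), normexp background correction, a stricter filter and none, the authors' normalized values, fits to the compared groups alone, a replicate block, sex as a covariate, SAM, the mean of a gene's probes, and each array left out in turn. Of the 10 genes, Hk2 in TrbE14 passed the test under normexp (1 gene) and Slc2a4 in TrbE10 without replicate 2 of TrbE10. Leaving out 1 array gave 0 to 1 genes in TrbE10 and 0 in the other comparisons. The replicate block gave 0 genes in each comparison. The replicate number is also the array's position in its slide row, in every group, so that the replicate block is a block of position too. Same-numbered arrays deviated together (r over 0.1) in 3 of 4 cases between the mutants (0.00919 to 0.47) and in 0 of 8 with controls. Over all comparisons this made 3 of 12 same-numbered pairs, beside 8 of 36 pairs with different numbers. The medians of r were -0.03 and 0.04. Among the latter was TrbE10 replicate 4 with TrbE14 replicate 3, at 0.40. Nothing in the labels ties the numbers to a litter or day, so that they were not taken to pair the mice. SAM called 483 genes in TrbE10 and 299 in TrbE14, and 0 of the 10. A slide block could not be fitted, TrbE10 being alone on its slide. Some differences turned their sign. For TrbE10 against TrbE14, Hk1 had 0.039 with the mean of its probes and -0.068 to 0.019 with 1 array left out, Hk2 -0.0041 to 0.090, Slc2a1 -0.15 to 0.061 and Pfkp -0.14 to 0.40. Pfkp had -0.0039 there with sex as a covariate. In the same comparison the single Hk1 probes gave -0.02 (A_55_P2027999), 0.02 (A_55_P2118843) and 0.11 (A_55_P2037398). The largest value came from the probe called uncertain above. Pdk4 in TrbE10 against control had -0.095 to 0.62 with 1 array left out. The cause was not tested.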
